A study of Bos taurus with 6 samples.

Results

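MiR-221 and miR-222 are a pair of small regulatory RNAs that were followed here in granulosa cells of the cow, the somatic cells that surround the oocyte in the ovarian follicle and nourish it. The pair was chosen by name, as bta-miR-221 and bta-miR-222, with no measured value in the rule. It makes up 2 of the 755 mature miRNA names in the files, each listed under 1 precursor. The small RNA libraries came from Simmental heifers in the second year of life, killed on cycle day 19, with 3 libraries from preovulatory dominant follicles and 3 from anovulatory subordinate follicles. The follicles of both groups came from the same set of heifers, whose cycles had been synchronized by the prostaglandin analogue cloprostenol and the GnRH analogue buserelin. RNA samples were pooled by the authors to form the 3 libraries of each follicle type, and the number of follicles in each library is not given. Dominant follicles were far scarcer than subordinate ones, so the spread between libraries may reflect few follicles in one group and many in the other. The labels call the libraries biological replicates but do not say which animals each pool holds, so the main test took the libraries as unpaired. P-values here measure the spread between these pools.

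Mature miRNAs guide the silencing machinery to mRNAs, mostly by pairing of their 5′ end, the seed, with the 3′-UTR of the target. MiR-221 and miR-222 carry the same seed, lie side by side on the X chromosome of mammals and are cut from a common primary transcript. They are best known for repressing CDKN1B (p27Kip1), a brake on the cell cycle, and KIT, the receptor of KIT ligand, which granulosa cells make and which acts on the oocyte and theca cells. The estrogen receptor gene ESR1 is a further known target, and the pair is also abundant in endothelial cells. In the bovine gene table of RefSeq, which uses a later assembly than the files, MIR221 and MIR222 are direct neighbours on chromosome X with 0 annotated genes between them, and 1 long non-coding RNA, LOC132344329, spans both.

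Taking the largest precursor row of each mature name, the libraries held between 190385 and 311842 reads in dominant and between 306932 and 364125 reads in subordinate follicles. Normalized levels are in CPM, that is reads scaled by edgeR to a common library size with TMM factors, and 3 reads are worth between 8.86 and 13.9 CPM. Both miRNAs lay far above that level in all 6 libraries. The test covered the 353 miRNAs with a read in 2 or more libraries of either follicle type, and it was edgeR's quasi-likelihood test with Benjamini-Hochberg adjustment, whose adjusted p is given as edgeR FDR. A miRNA was called, by the limits of the study, with a log2 fold change of 1 or more in size, p up to 0.05 and an FDR up to 0.1. Of the 353, 76 (21.5%) were called. In dominant follicles 42 (11.9% of those tested) were higher and 34 (9.63%) lower. The median log2 fold change of all tested miRNAs was -0.20 with TMM factors and -0.012 when libraries were scaled by total count, so values close to this shift cannot be given a direction.

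Bta-miR-221 was higher in granulosa cells of preovulatory dominant follicles, about 3.1-fold by the fitted model, while bta-miR-222 differed by a smaller fitted fold of 1.75 and missed the fold change threshold. Both miRNAs lay above the subordinate range in every library of dominant follicles. The ratio of bta-miR-221 to bta-miR-222 was also higher in every dominant library. Most of the difference in the summed CPM of the pair, 82.8%, came from bta-miR-221, a share of reads and not of molecules.

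In the order of the replicate numbers, the dominant libraries held 307, 164 and 305 reads of bta-miR-221, and the subordinate libraries held 125, 67 and 91. The normalized levels were 1083, 761 and 971 CPM in dominant follicles, with a mean of 938 ± 164 (SD, n = 3). In subordinate follicles they were 369, 217 and 321 CPM, with a mean of 302 ± 77.9 (SD, n = 3). The lowest dominant library, replicate 2, was still 2.06-fold above the highest subordinate library, replicate 1, so the groups did not overlap. Over all 9 pairs of a dominant and a subordinate library the fold ran up to 5.0, with a median of 3.02. Its log2 fold change came to 1.63 (SE 0.26, edgeR FDR = 0.00259), higher in 3 of 3 libraries. An interval of 1 standard error around the fitted fold ran from 2.59 to 3.71. Among the 42 miRNAs called higher in dominant follicles, 32 had a larger log2 fold change, so bta-miR-221 stood in the lower part of that list.

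For bta-miR-222 the dominant libraries held 104, 64 and 81 reads, and the subordinate libraries 72, 37 and 55. These corresponded to 367, 297 and 258 CPM in dominant follicles, with a mean of 307 ± 55.3 (SD, n = 3). The subordinate libraries had 213, 119.7 and 194 CPM, with a mean of 175 ± 49.2 (SD, n = 3). Dominant replicate 3 and subordinate replicate 1 came closest, at 1.21-fold, and the groups did not overlap. Its log2 fold change came to 0.81 (SE 0.29, unadjusted p = 0.0219, edgeR FDR = 0.0806). Bta-miR-222 thus met the limits on p and FDR but not the one on fold change, and it was not called. An interval of 1 standard error around its fitted fold of 1.75 ran from 1.43 to 2.13, which includes a doubling, a log2 fold change of 1. A level without overlap and higher in dominant follicles was found for 65 of the 353 tested miRNAs (18.4%), so the lack of overlap alone is a common result in these libraries.

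**Figure D1:**
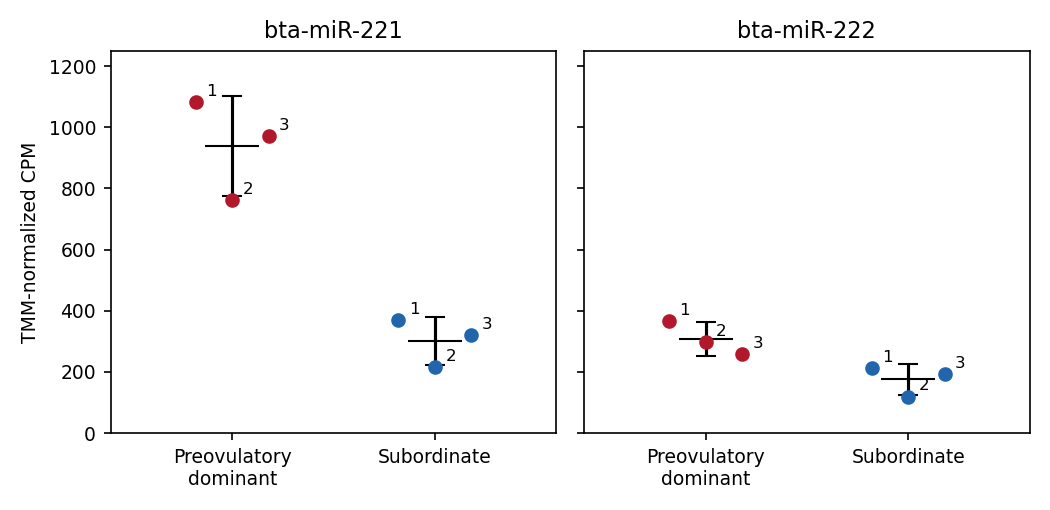
TMM-normalized CPM (vertical axis) of bta-miR-221 and bta-miR-222 in each library, with replicate numbers beside the points and the mean and SD of 3 libraries as black bars. The dominant libraries of bta-miR-221 lie between 761 and 1083 CPM and the subordinate ones between 217 and 369 CPM, while those of bta-miR-222 lie between 258 and 367 CPM and between 119.7 and 213 CPM.

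The replicate spread of both miRNAs was alike within a group. The coefficient of variation in dominant follicles was 17.5% for bta-miR-221 and 18% for bta-miR-222, against 25.8% and 28.0% in subordinate follicles. In subordinate follicles the pair deviated together. On the log2 CPM scale replicate 2 deviated from the group mean by -0.44 for bta-miR-221 and -0.50 for bta-miR-222, and replicate 1 by 0.32 and 0.31. In dominant follicles both were above their mean in replicate 1, by 0.22 and 0.27, but replicate 3 was above the mean for bta-miR-221 (0.065) and below it for bta-miR-222 (-0.23). Between libraries with the same replicate number, the fold of dominant over subordinate follicles was 2.93, 3.51 and 3.02 for bta-miR-221. For bta-miR-222 it was 1.73, 2.48 and 1.33, a wider range around a smaller value.

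As a share of all reads with 1 value per miRNA, bta-miR-221 took 0.118, 0.0861 and 0.0978% in dominant libraries and 0.0378, 0.0184 and 0.0296% in subordinate libraries. The lowest dominant share had a 95% Wilson interval of 0.0739 to 0.1004%, and the highest subordinate share had one of 0.0318 to 0.0451%. Bta-miR-222 took 0.0400, 0.0336 and 0.0260% of the reads in dominant and 0.0218, 0.0102 and 0.0179% in subordinate libraries. Here the intervals of the closest libraries overlapped, from 0.0209 to 0.0323% in dominant replicate 3 and from 0.0173 to 0.0274% in subordinate replicate 1. Such intervals cover counting error only, since reads without molecular identifiers are not independent molecules.

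**Figure D2:**
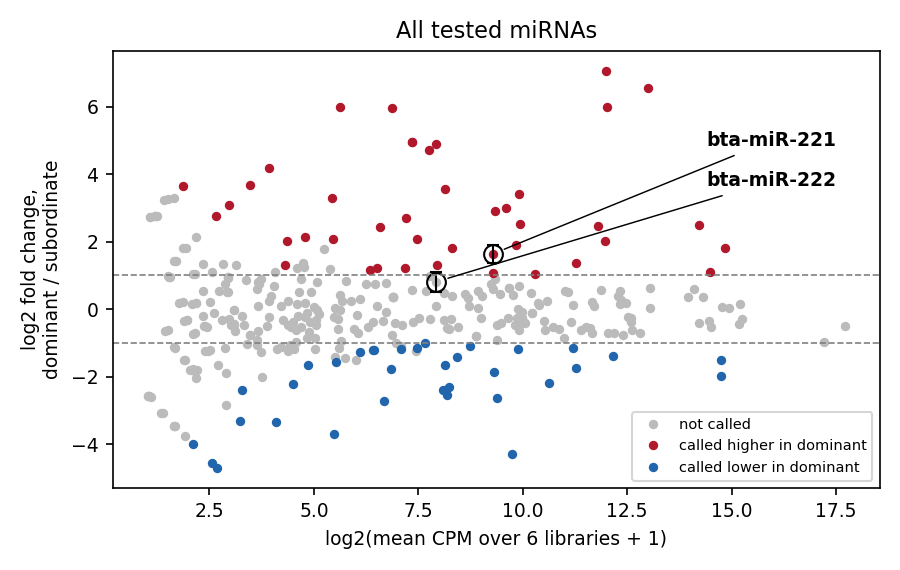
Log2 fold change of dominant over subordinate follicles (vertical axis) against log2 of the mean CPM over 6 libraries plus 1 (horizontal axis) for the 353 tested miRNAs, with called miRNAs in colour, the thresholds of 1 and -1 as dashed lines and the pair ringed with bars of 1 standard error. Bta-miR-221 lies at 1.63 above the upper line and bta-miR-222 at 0.81 below it.

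The pair belonged to the moderately expressed miRNAs. Ranked by CPM among the 353 tested miRNAs, with rank 1 as the highest, bta-miR-221 held ranks 67, 87 and 74 in dominant libraries and ranks 108, 117 and 107 in subordinate libraries. Bta-miR-222 held ranks 106, 117 and 115 in dominant and 119, 138 and 123 in subordinate libraries. In the order of mean log2 CPM over all libraries bta-miR-221 was at rank 93, between bta-miR-215 (158 to 2649 CPM) and bta-miR-425-5p (359.9 to 729 CPM). The CPM range of all 3 neighbours on either side overlapped with its own range of 217 to 1083 CPM. Bta-miR-222 was at rank 120, next to bta-miR-20a (127 to 499 CPM) and bta-miR-28 (116 to 417 CPM), and its 6 neighbours likewise overlapped with its range of 119.7 to 367 CPM. These ranges span both follicle types, and within a type part of the order was clear. Of the 6 neighbours of bta-miR-221, 3 lay below it without overlap in dominant follicles, 1 lay above it and 2 overlapped. In subordinate follicles 4 lay above it without overlap, 1 lay below it and 1 overlapped, and bta-miR-769 and bta-miR-181b thus changed from below to above. Of the 6 neighbours of bta-miR-222, 2 overlapped with it in dominant and 4 in subordinate follicles, while bta-miR-20a and bta-miR-2285k changed from below to above. Mature miRNAs are of nearly equal length, but adapters are ligated to them with unequal efficiency, so CPM of different miRNAs compare reads and not molecules.

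Neighbours in level went in either direction. Of the 6 miRNAs around bta-miR-221, bta-miR-421 (log2 fold change 1.06, edgeR FDR = 0.00791) and bta-miR-215 (3.41, edgeR FDR = 0.000144) were called higher, and bta-miR-769 (-1.87, edgeR FDR = 0.00157) was called lower in edgeR's quasi-likelihood test. Around bta-miR-222, bta-miR-450a (1.8, edgeR FDR = 0.00206) and bta-miR-28 (1.30, edgeR FDR = 0.00881) were called higher. Bta-miR-20a (-1.66, edgeR FDR = 0.00269) and bta-miR-2285k (-2.31, edgeR FDR = 0.0045) were called lower.

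Because both miRNAs are cut from a common transcript, their ratio within a library was examined next. It needs no library size and no normalization. Bta-miR-221 had 2.95, 2.56 and 3.77 reads for each read of bta-miR-222 in the dominant libraries, with a mean ratio of 3.09 ± 0.614 (SD, n = 3). The subordinate libraries had ratios of 1.74, 1.81 and 1.65, with a mean of 1.73 ± 0.0782 (SD, n = 3). Bta-miR-221 was thus the more frequent of the pair in all 6 libraries, and each dominant library had a higher ratio than each subordinate library.

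On the log2 scale the ratio was 1.61 ± 0.28 in dominant and 0.79 ± 0.065 in subordinate follicles (SD, n = 3 each). The difference was 0.82, a 1.76-fold higher ratio in dominant follicles (p = 0.1 in a two-sided exact permutation test, which cannot give a smaller p with 3 libraries per group). Differences between single libraries of the groups ran from 0.50 to 1.19. The read counts alone give an expected SD of the log2 ratio of 0.19 in dominant and 0.25 in subordinate libraries. The subordinate libraries differed from each other by less than this counting error. As a share of the reads of the pair, bta-miR-221 took 74.7, 71.9 and 79.0% in dominant and 63.5, 64.4 and 62.3% in subordinate libraries. The 95% Wilson intervals of the dominant libraries ran from 65.8% at the lowest to 82.8% at the highest, and those of the subordinate libraries from 54.2 to 73.0%. Only dominant replicate 3 had an interval, 74.7 to 82.8%, apart from those of all 3 subordinate libraries, while the interval of dominant replicate 1, 70.3 to 78.7%, was apart from those of subordinate replicates 1 and 3.

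**Figure D3:**
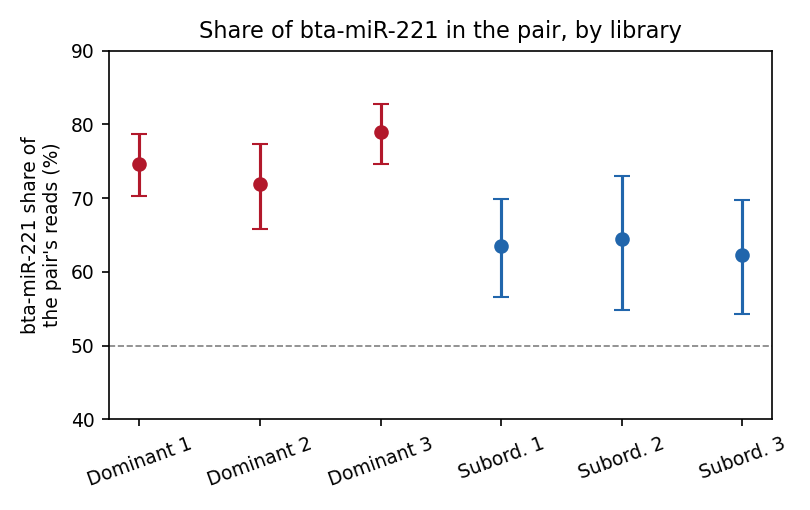
Share of bta-miR-221 in the summed reads of bta-miR-221 and bta-miR-222 (vertical axis, percent, starting at 40) in each library, with 95% Wilson intervals that cover counting error only and a dashed line at equal reads. The dominant libraries lie between 71.9 and 79.0% and the subordinate libraries between 62.3 and 64.4%.

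The summed level of the pair was 1450, 1058 and 1229 CPM in dominant libraries and 582, 336 and 515 CPM in subordinate libraries. Its mean was 1246 ± 197 CPM (SD, n = 3) in dominant and 478 ± 127 CPM (SD, n = 3) in subordinate follicles. Bta-miR-221 accounted for 636 CPM of the difference between these means and bta-miR-222 for 132 CPM, in reads and not in molecules.

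The ratio of other pairs of miRNAs that lie close together in the genome was set beside that of the pair. Members of these pairs need not be direct neighbours, and a shared transcript or further gene copies were not checked for them. Of 18 such pairs, 13 had at least 10 reads of both miRNAs in every library, the pair of bta-miR-221 and bta-miR-222 included. The 5 others, which were bta-miR-132 with bta-miR-212, bta-miR-424-5p with bta-miR-503-5p, bta-miR-362-5p with bta-miR-532, bta-miR-193a-3p with bta-miR-365-3p and bta-miR-451 with bta-miR-144, had fewer. The log2 ratio did not overlap between dominant and subordinate follicles for 5 of the 13 pairs (38.5%). Among the 12 other pairs the absolute difference in log2 ratio had a median of 0.45 and ran from 0.13 for bta-miR-25 over bta-miR-93 to 1.05 for bta-miR-99b over bta-miR-125a. The difference of 0.82 for bta-miR-221 over bta-miR-222 was exceeded in size by bta-miR-99b over bta-miR-125a (-1.05) and by bta-miR-192 over bta-miR-194 (-1.03), of which the latter overlapped between the groups. The log2 ratio of bta-miR-99b over bta-miR-125a was 0.38, 0.017 and 1.22 in the subordinate libraries, so much of its difference came from replicate 3. A shifted ratio within such a pair was thus seen in several places and not in bta-miR-221 and bta-miR-222 alone.

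Members called in the same direction also had unequal fold changes. Bta-miR-183 and bta-miR-182, members of another cluster, were both called higher in dominant follicles, with log2 fold changes of 7.06 and 6.55. Their log2 ratio differed by 0.54 without overlap. Bta-miR-17-5p and bta-miR-20a were both called lower, at -1.42 and -1.66, and their log2 ratios overlapped with a difference of 0.21. Among the 13 pairs, bta-miR-221 with bta-miR-222 and bta-miR-99b with bta-miR-125a were those with 1 member called, the other not called and a ratio without overlap.

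**Figure D4:**
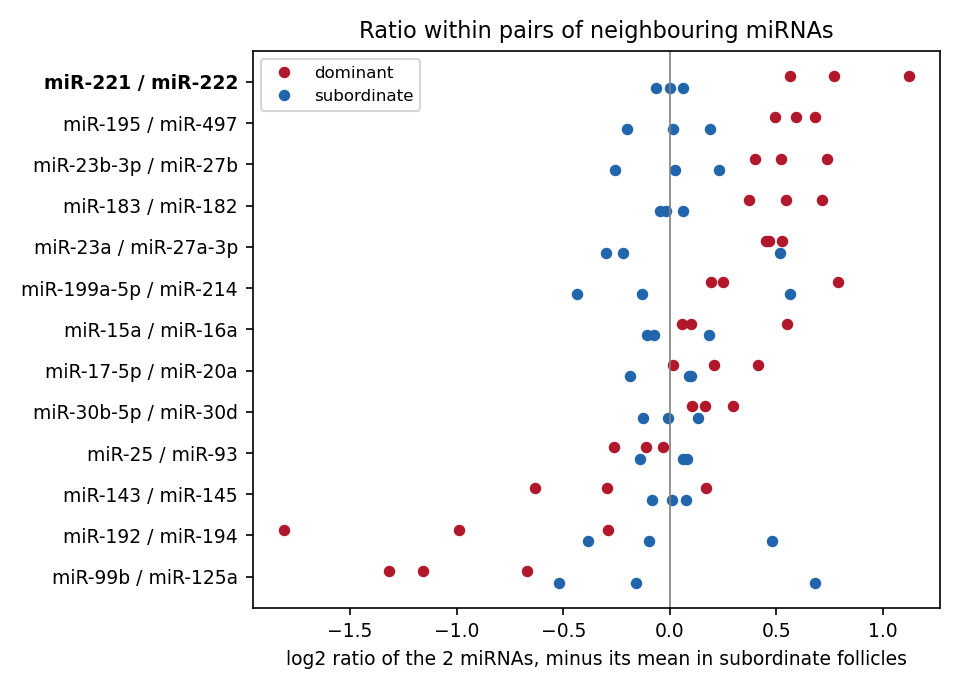
Log2 ratio of the reads of 13 pairs of miRNAs that lie close together in the genome, in each library (horizontal axis). Values are drawn relative to the mean of the subordinate libraries, with dominant libraries in red and subordinate libraries in blue. The dominant libraries of bta-miR-221 over bta-miR-222 lie to the right of the subordinate libraries with a mean shift of 0.82, and those of bta-miR-99b over bta-miR-125a lie to the left with a shift of -1.05.

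The patterns most like those of the pair were sought among the 194 tested miRNAs that averaged 10 reads or more, by Pearson correlation of log2 CPM over the 6 libraries. The levels of the pair did not overlap between the groups, so the coefficients carry the difference between the groups, and they serve as a description. The 5 miRNAs closest to bta-miR-221 were bta-miR-132 (r = 0.99), bta-miR-450a (0.98), bta-miR-301a (0.97), bta-miR-21-3p (0.97) and bta-miR-542-5p (0.97). Bta-miR-132, which is known to be induced by luteinizing hormone in granulosa cells, had 2097, 1076 and 3757 reads in dominant libraries but only 60, 14 and 45 in subordinate ones. Its log2 fold change of 5.99 was far larger than that of bta-miR-221, so the likeness is one of pattern over the libraries and not of size. Bta-miR-222 came at place 21 of 193 for bta-miR-221, with r = 0.93. For bta-miR-222 the closest were bta-miR-874 (0.97), bta-miR-152 (0.97), bta-miR-21-3p (0.95), bta-miR-301a (0.93) and bta-miR-221 (0.93). Bta-miR-21-3p and bta-miR-301a stood in both lists.

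Bta-miR-21-3p had 438, 244 and 514 reads in dominant and 187, 48 and 125 reads in subordinate follicles and was called higher, at a log2 difference of 1.91 (SE 0.42, edgeR FDR = 0.0127). Bta-miR-301a had 42, 28 and 38 reads against 29, 22 and 22, and its log2 fold change of 0.76 (edgeR FDR = 0.0892) was below the threshold, as that of bta-miR-222 was. Bta-miR-874, with 72, 53 and 70 reads against 65, 36 and 54, had a log2 fold change of 0.53 (edgeR FDR = 0.21).

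Other miRNAs reported to act on KIT and ESR1 were looked up in the same fit, and no list was made for CDKN1B. Of 4 listed for KIT, 3 were tested and 0 were called, beside 21.5% of all tested miRNAs, so a list this short says little. Their log2 fold changes were all above 0, at 1.19 for bta-miR-34a, 0.40 for bta-miR-193a-3p and 0.096 for bta-miR-193b. That of bta-miR-34a had an SE of 0.48 (edgeR FDR = 0.117), with 15, 19 and 10 reads in dominant and 8, 9 and 6 reads in subordinate follicles. Bta-miR-193b had 68, 72 and 57 reads against 68, 91 and 59, and bta-miR-494 had no read in any library, which leaves levels of up to 3 reads possible. At an unadjusted p under 0.05, 1 of these 3 passed in edgeR and 0 in DESeq2, which called none of them either.

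Of 7 miRNAs listed for ESR1, 5 were tested. Bta-miR-22-3p was called higher, at a log2 fold change of 2.49 (edgeR FDR = 9.48e-06), and bta-miR-19a was called lower, at -1.23 (edgeR FDR = 0.0767). Without repeats the lists for KIT and ESR1 together held 7 tested miRNAs, of which 1 (14.3%) was called higher and 1 (14.3%) lower, beside 11.9 and 9.63% of all tested miRNAs, with a median log2 fold change of 0.096 beside -0.20 for all 353 tested miRNAs.

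Other miRNAs of the X chromosome were called in both directions. By the RefSeq table, in which 752 of the 766 precursor names of the files were found, 53 further mature names had all their precursors on chromosome X, and 38 of these were tested. In dominant follicles 7 of them (18.4%) were called higher and 5 (13.2%) lower, with a median log2 fold change of -0.029, beside 11.9% higher, 9.63% lower and a median of -0.20 for all tested miRNAs. Those called higher included bta-miR-424-3p, bta-miR-424-5p, bta-miR-450a, bta-miR-450b and bta-miR-542-5p, which belong to a single cluster, so the count is not one of separate loci. The most abundant of the 38 were bta-miR-98, bta-miR-660, bta-miR-450b and bta-miR-6119-5p. Of these, bta-miR-450b was called higher, at 1.35 (edgeR FDR = 0.00791), and bta-miR-6119-5p lower, at -1.14 (edgeR FDR = 0.00567). Bta-miR-98 (0.63, edgeR FDR = 0.0484) and bta-miR-660 (-0.57, edgeR FDR = 0.0734) were below the fold change threshold.

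Markers of other cells that a granulosa sample can hold were set beside the pair. A change in the amount of a miRNA per cell and a change in the number of cells that hold it cannot be told apart in such bulk RNA. The labelled cell type was not checked by a marker of its own, as no miRNA was listed as defining for granulosa cells. In the study the purity of the cells was assessed by PCR for the granulosa gene FSHR and the theca gene CYP17A1, mRNAs that small RNA libraries do not measure. The endothelial miRNAs bta-miR-126-3p and bta-miR-126-5p summed to between 73.2 and 293 CPM in dominant and between 354 and 539.9 CPM in subordinate follicles. Between the groups they lay in the opposite order to the pair, although neither was called in edgeR (FDR = 0.105 and 0.113). Both had an unadjusted p under 0.05 there, and DESeq2 called both of the 2 lower. In dominant replicates 1, 2 and 3 they summed to 293, 199 and 73.2 CPM, an order shared by bta-miR-222 (367, 297 and 258 CPM) but not by bta-miR-221. In subordinate follicles (354, 385 and 539.9 CPM) neither member of the pair shared their order. Whether endothelial cells bear on the levels of the pair was not tested. Of 5 markers of theca or stroma 1, bta-miR-214, was called, and it was lower in dominant follicles. Their sums overlapped, between 17603 and 27823 CPM in dominant and between 21064 and 35751 CPM in subordinate follicles. Most of these sums was bta-miR-143, with a mean of 19027 CPM in dominant and 27400 CPM in subordinate follicles. All 5 had log2 fold changes below 0, from -0.26 for bta-miR-145 to -1.20 for bta-miR-214, beside a median of -0.20 for all tested miRNAs. Of 4 leukocyte markers 3 were tested and 0 were called, by edgeR or DESeq2, with 0 at an unadjusted p under 0.05 in either tool. They summed to 1112, 654 and 258 CPM in dominant and to 514, 408 and 558 CPM in subordinate replicates 1, 2 and 3. Of all 353 tested miRNAs, edgeR called 76 (21.5%), with 11.9% higher and 9.63% lower, and DESeq2 called 68. Counts from marker lists this short therefore say little.

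The erythroid markers bta-miR-451 and bta-miR-486 were called higher in dominant follicles, 2 of 3 markers beside 11.9% of all tested miRNAs. Bta-miR-144 had at most 5 reads in any library. The 3 markers summed to 13091, 8247 and 1048 CPM in dominant follicles and to 1512, 1530 and 808 CPM in subordinate follicles. Dominant replicates 1 and 2 thus stood apart, while dominant replicate 3 lay within the subordinate range. In that library bta-miR-221 was at 971 CPM and bta-miR-222 at 258 CPM, both above all subordinate libraries. Over the dominant libraries bta-miR-222 (367, 297 and 258 CPM) fell in the same order as the erythroid sums, while bta-miR-221 (1083, 761 and 971 CPM) did not. In subordinate follicles neither member of the pair shared the order of these sums. Without dominant replicates 1 and 2, an alternative chosen after the data were seen, the log2 fold change of bta-miR-221 was 1.66. That fit assumes that the lone dominant library varies like the others, so only effect sizes are given. The log2 fold change of bta-miR-222 became 0.53, while the log2 ratio of the pair differed by 1.12 between dominant replicate 3 and the mean of the subordinate libraries. Whether the erythroid markers bear on the levels of the pair was not tested.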

How the data were processed

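The authors made 3 small RNA libraries of each follicle type from granulosa cells. The deposited values are raw read counts for each pair of mature miRNA and precursor, 906 rows per library. Before deposit, reads were trimmed and filtered by length and quality (Cutadapt, Seqtk), aligned to the cow genome with Bowtie and counted on miRBase entries through miRDeep2. The labels gave the follicle type and replicate number of each library. For each mature name the largest precursor row was used. Counts were tested with edgeR 4.0.16 (R 4.3.3), TMM factors, glmQLFit and glmQLFTest on follicle type alone and Benjamini-Hochberg adjustment over 353 miRNAs, checked on simulated data. SE is log2 fold change over the root of F, in size. DESeq2 1.42.0, the tool of the study, was an alternative. Deviations from the group means correlated between same-numbered libraries at r = 0.14, 0.38 and 0.41 over 194 miRNAs, against -0.42 to 0.19 for different numbers. The value of replicate 1 was within the range of different numbers, so the match is weak there. The replicate number was also fitted as a block. The labels do not say what a shared number stands for. The pairing is inferred from these correlations, in which the deviations within a group cancel out. Positive values for same numbers therefore bring negative values elsewhere, so the contrast is partly built in. Log2 CPM used a prior count of 1. Python 3.11.15 with scipy 1.17.1 served for permutation tests. The named miRNAs are the pair, its 5 most similar and 3 nearest miRNAs on each side in level, and the pairs, target lists, cell markers and X-linked miRNAs. Members and lists were chosen with earlier results of these data known. One further target list is not reported here. Chromosomes and neighbouring genes were read from the RefSeq gene table, and no sequences were used here.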

Additional observations from a re-analysis of the deposited data

How the results depend on the processing

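Under 15 alternative fits bta-miR-221 was called each time, with log2 fold changes between 1.44 and 1.82, and bta-miR-222 was not called in any, with values between 0.53 and 0.997. Without the fold change threshold, bta-miR-222 was called as well (edgeR FDR = 0.0806). Leaving out 1 library gave 1.44 to 1.8 for bta-miR-221, 0.59 to 0.97 for bta-miR-222 and 0.67 to 0.94 for the difference in the log2 ratio of the pair. The false discovery rate of bta-miR-222 was at most 0.1 in 8 of these planned fits and above it in the rest. Among the fits that left out 1 library it reached 0.219 without subordinate replicate 2 and 0.237 without dominant replicate 1. With the replicate block the log2 fold changes were 1.65 and 0.82 with 71 called miRNAs, and the ratio differed by 0.82 (p = 0.25 by exact permutation of signs, the lowest possible with 3 pairs), and no call of the pair changed. The number of called miRNAs, 76, ran from 54 to 78 when 1 library was left out and from 64 to 107 under the other planned settings, the highest without a fold change threshold. It was 39 without dominant replicates 1 and 2, where fewer libraries remain. Scaling by total count gave 47 higher and 23 lower (67.1% higher) in place of 42 and 34 (55.3%), and log2 fold changes of 1.82 and 0.997 for the pair. Bta-miR-222 rested on 37 to 104 reads per library, and the part of counting error in its spread was not tested.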
